A study of Mus musculus with 18 samples.

Results

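In all, 6 transcription factors of the hair follicle were followed over the 18 arrays of the series: Gata3, Dlx3, Foxn1, Hoxc13, Msx2 and Lef1. Every probe set that the platform annotation assigns to 1 of these 6 symbols was taken, which gave 10 probe sets of 45037. Of these 10, 7 passed the filter on dim probe sets (mean log2 signal over all arrays above 3.15), and each of the 6 genes kept at least 1. The second probe sets of Foxn1, Msx2 and Lef1 did not pass.

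The series compared skin of K14NICDER transgenic mice with skin of wild-type mice, in epidermis, dermis and whole skin, with 3 arrays in each of the 6 groups. In K14NICDER mice the keratin 14 promoter, a promoter of the basal keratinocyte layer, drives the intracellular domain of Notch fused to the hormone-binding domain of the oestrogen receptor, so that 4-hydroxytamoxifen (4OHT) switches the protein on. Transgenic and wild-type mice alike were C57Bl6xCBA F1 females, 7 weeks old at the start, and both genotypes received 4OHT for 14 days, so every comparison of genotypes was made under the compound. Nothing in the labels ties the samples to single animals, across tissues or within a group, and p-values therefore measure the spread between these samples, which may be partly technical.

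The hair follicle builds concentric layers from matrix cells around the dermal papilla. GATA3 acts in the inner root sheath, the layer that moulds the growing hair, and in skin it also has roles in the epidermal barrier and in T cells and other lymphocytes. LEF1 is a nuclear partner of beta-catenin and carries Wnt signals in hair precursors, MSX2 is a homeodomain factor of the matrix that acts with BMP signals, DLX3 is a homeodomain factor of hair matrix and of differentiating epidermis, FOXN1 is the winged-helix factor lost in nude mice, and HOXC13 regulates keratins of the hair shaft. Notch signals pass through the DNA-binding protein RBPJ and are known to act in follicle and epidermal differentiation.

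Promoter sequences were available for 4 of the 6 genes (RefSeq, GRCm38.p6, 250 bases before to 50 bases after the start of the gene). The windows of Gata3, the gene whose level differed most clearly between the genotypes, and of Lef1, the gene among the 4 whose window held the letters bound by RBPJ, are shown, each read 5′ to 3′ on the strand of the gene. Capitals mark a GATA motif in Gata3 and an RBPJ motif in Lef1.
Gata3, chr2:9878551-9878850, minus strand: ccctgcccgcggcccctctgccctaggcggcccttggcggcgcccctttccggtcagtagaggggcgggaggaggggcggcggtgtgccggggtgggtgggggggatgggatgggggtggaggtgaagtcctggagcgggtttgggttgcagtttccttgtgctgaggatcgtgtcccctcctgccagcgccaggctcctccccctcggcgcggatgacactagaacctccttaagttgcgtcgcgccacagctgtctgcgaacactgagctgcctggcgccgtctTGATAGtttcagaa
Lef1, chr3:131110047-131110346, plus strand: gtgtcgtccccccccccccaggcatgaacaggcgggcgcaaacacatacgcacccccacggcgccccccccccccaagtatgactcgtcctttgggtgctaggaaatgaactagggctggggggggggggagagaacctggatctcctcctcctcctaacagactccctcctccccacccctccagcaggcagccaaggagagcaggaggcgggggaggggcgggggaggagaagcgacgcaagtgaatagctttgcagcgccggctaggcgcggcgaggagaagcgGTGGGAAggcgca
In the Gata3 window the capitals TGATAG began 37 bases after the start, and no RBPJ motif was found. In the Lef1 window the capitals GTGGGAA began 38 bases after the start. The table holds 4 start windows of Lef1, of which 2 overlapping ones held these letters and another held GATA letters. The letters searched, on both strands, were GTGGGAA for RBPJ, CTTTGAA and the variant CTTTGAT for TCF/LEF, and for GATA factors AGATAA with the variant AGATAG, besides TGATAA with the variant TGATAG, and no match in the members overlapped a match of another motif. Of 27025 mouse promoters of the same length, 6.39% held the RBPJ letters, 8.77% the TCF/LEF letters and 30.2% the GATA letters. The windows of Foxn1 and Msx2 held none of the 3 motifs. A match describes letters and does not show binding.

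The labels of the tissues were set against marker genes. In wild-type dermis, 12 of the 13 fibroblast markers tested were higher than in wild-type epidermis and 0 were lower, and 8 of the 12 markers of differentiated keratinocytes tested were lower. Of all probe sets tested, 8.57% were called higher and 7.12% lower. Keratinocyte genes were present in both separated tissues: Krt14, the basal keratin whose promoter drives the transgene, read 11.25, 11.03 and 11.10 in transgenic dermis, 11.46, 11.51 and 11.39 in wild-type dermis, and 12.05, 12.38 and 12.09 in transgenic epidermis against 13.03, 12.04 and 12.70 in wild-type epidermis (log2 signal). The dermis arrays thus carry signal of keratinocyte genes. The median within-group SD of a probe set was 0.53 on the log2 scale in dermis, 0.49 in epidermis and 0.23 in whole skin.

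Gata3 was lower in transgenic skin. Averaged over the 3 tissues, its log2 signal fell by 1.37 (SE 0.16, 95% confidence interval −1.71 to −1.02, limma adjusted p = 6.99e-05), which is 2.58-fold lower than in wild type. It was the only member to change with genotype in any comparison: 1 of the 7 tested probe sets was called in the averaged comparison, against 4.34% of all 31526 probe sets tested (1.9% higher and 2.44% lower). The call on the averaged effect held at all 9 other settings and with each of the 18 arrays left out in turn.

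In epidermis, Gata3 read 7.96, 7.65 and 8.50 on the log2 scale in transgenic mice, against 9.66, 9.41 and 9.52 in wild-type mice. In dermis it read 5.82, 6.27 and 5.49 in transgenic mice, against 7.97, 7.52 and 7.17 in wild-type mice. In whole skin it read 6.74, 6.26 and 6.89 in transgenic mice, against 7.36, 7.92 and 7.35 in wild-type mice. In each tissue every transgenic array lay below every wild-type array, so the genotypes did not overlap in any of the 3. That pattern was found for 244 of the 31526 probe sets tested (0.774%). In single tissues it was less rare, with transgenic arrays all below for 14.7% of probe sets in epidermis, 12.1% in whole skin and 6.04% in dermis.

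In epidermis alone Gata3 fell by 1.49 on the log2 scale (SE 0.27, 2.82-fold, limma adjusted p = 0.0223), where 1.49% of all probe sets were called (0.923% higher and 0.568% lower) and the median of all probe sets was −0.20. This call passed with 2 of the 6 arrays left out in turn. It missed the threshold with replicate number as a block (adjusted p = 0.0664, limma), although the numbers were not found to pair the genotypes, and without wild-type epidermis replicate 1 (0.0537) or replicate 3 (0.122), and without transgenic epidermis replicate 1 (0.105) or replicate 2 (0.0990). In dermis the log2 difference was −1.69 (SE 0.35, 3.23-fold, limma adjusted p = 0.566) and did not pass the threshold, in a comparison where only 7 probe sets were called in all (0.0222%), each of them higher, and where 1234 had an unadjusted p under 0.05. In whole skin the log2 difference was −0.91 (SE 0.21, 1.88-fold, limma adjusted p = 0.0673) and did not pass, where 1.56% of all probe sets were called (0.91% higher and 0.653% lower).

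The size of the genotype difference was not shown to depend on the tissue. The difference in dermis minus that in epidermis was −0.20 on the log2 scale, with a 95% confidence interval of −1.12 to 0.72 (limma adjusted p = 0.894). Within wild-type mice, Gata3 was lower in dermis than in epidermis by a log2 difference of −1.98 (SE 0.30, 3.94-fold, limma adjusted p = 8.45e-04). From low to high, the group means ran from transgenic dermis at 5.86 ± 0.39 (SD, n = 3), whose range overlapped with that of transgenic whole skin at 6.63 ± 0.33. Transgenic whole skin lay apart from wild-type whole skin at 7.54 ± 0.33. Wild-type dermis at 7.55 ± 0.40 overlapped with wild-type whole skin below it and with transgenic epidermis above it, at 8.04 ± 0.43. Transgenic epidermis lay apart from the highest group, wild-type epidermis, at 9.53 ± 0.12.

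**Figure D1:**
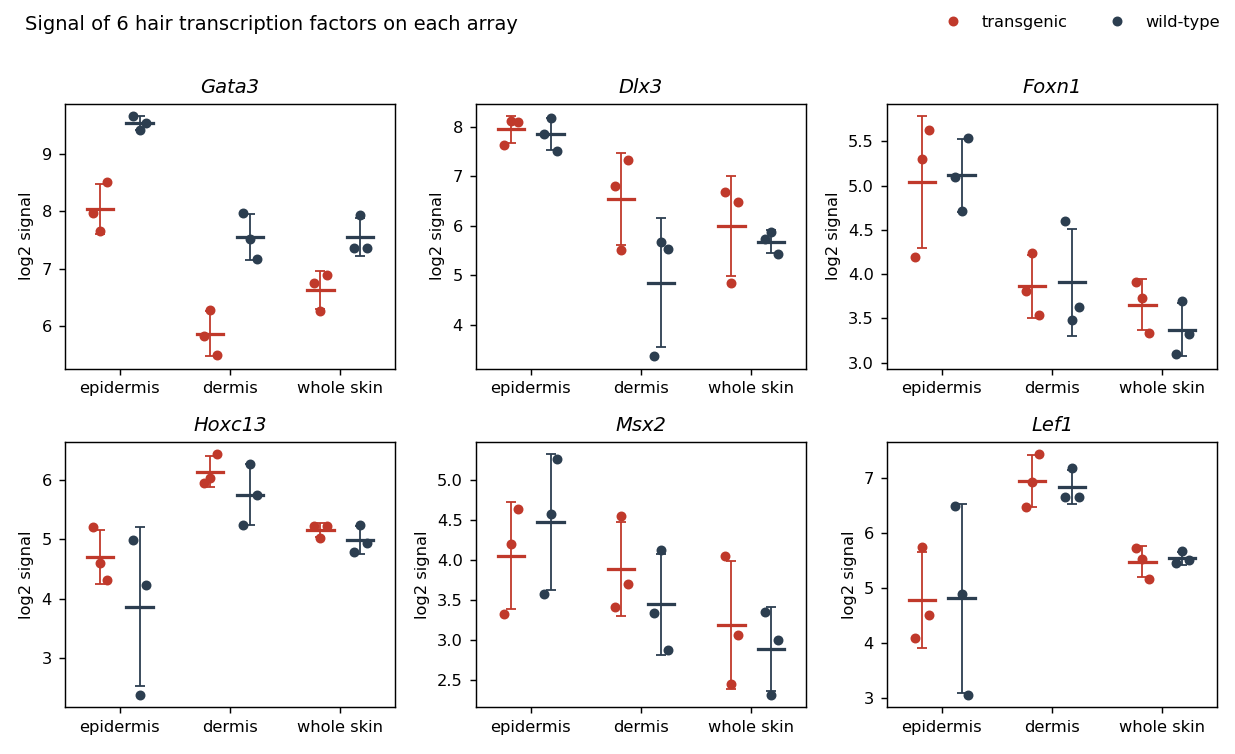
Log2 signal of the brightest probe set of each gene, 1 point per array, with the mean and SD of the 3 arrays, by tissue and genotype (each panel has its own vertical scale). For Gata3 the transgenic points lie below all wild-type points in each of the 3 tissues, while the other genes overlap between the genotypes in every tissue.

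In such mixed tissue, fewer cells of a type and less RNA per cell cannot be told apart, and Gata3 is made by keratinocytes and by lymphocytes. The summed linear signal of 10 basal keratinocyte markers was lower in transgenic epidermis, at 12347 to 12750, than in wild-type epidermis, at 17763 to 23388. It was also lower in transgenic dermis (10945 to 12637) than in wild-type dermis (14170 to 16686), and overlapped in whole skin (12188 to 12806 in transgenic and 12346 to 14737 in wild-type mice). The ratio of the mean sums, transgenic over wild type, was 0.925 in whole skin, 0.753 in dermis and 0.590 in epidermis. Among these 10 genes, Krt15 (log2 difference −3.66, adjusted p = 8.14e-04, limma) and Col17a1 (−1.19, adjusted p = 0.0357) fell in epidermis, while Krt14 (−0.42, adjusted p = 0.447) and Krt5 (−0.23, adjusted p = 0.605) did not pass. Markers of differentiated keratinocytes, 13 genes, moved otherwise. Their sums overlapped between the genotypes in epidermis (ratio 0.910). They were lower on all transgenic arrays in dermis (ratio 0.609) and higher on all transgenic arrays in whole skin (ratio 1.19).

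T cell markers did not separate the genotypes in their sum. The summed linear signal of 14 T cell markers was 1299 to 1864 in transgenic epidermis and 1200 to 1830 in wild-type epidermis, and the genotypes overlapped in dermis and whole skin as well. Within the list the genes diverged. Averaged over the tissues, 4 of the 14 rose, namely Cd4 by 1.73, Cd5 by 1.08, Icos by 1.20 and Foxp3 by 1.27 on the log2 scale, and 0 fell. Of all probe sets tested, 1.9% were called higher and 2.44% lower in that comparison. Cd3e, a chain of the T cell receptor complex, read 6.98, 7.85 and 7.82 in transgenic epidermis, against 9.09, 8.37 and 8.73 in wild-type epidermis, a log2 difference of −1.18 that did not pass (limma adjusted p = 0.0959). All transgenic epidermis arrays were below the wild-type ones for Cd3e, Cd3d (log2 difference −0.70) and Cd2 (−0.42), as for 14.7% of all probe sets tested. They were above them for Cd4 (log2 difference 2.46), Cd5 (0.93), Icos (1.53) and Foxp3 (2.14). The share of all probe sets with transgenic epidermis arrays all above was not counted. Of the 14 markers, Icos was the only one called in epidermis (limma adjusted p = 0.0404). In whole skin only Icos (log2 difference 1.32, limma adjusted p = 0.0171) and Foxp3 (1.15, adjusted p = 0.0461) were called, both higher. There, 0.91% of all probe sets tested were called higher. In dermis (−0.20) and whole skin (−0.17) the Cd3e differences were small and overlapping.

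Type 2 lymphocytes depend on GATA3. Of 8 of their markers on the array, Il4, Il5, Il13 and Ptgdr2 did not pass the filter. Of the 4 tested, 0 were called in any comparison of genotypes. Ccr4, 1 of these 4, had log2 differences of −0.59 in whole skin, −1.28 in dermis and −1.23 in epidermis. Its averaged difference of −1.03 did not pass (limma adjusted p = 0.0660). All transgenic arrays were below the wild-type ones for Ccr4 in dermis and epidermis, for Il17rb (−0.88) in epidermis and for Rora (−0.14) in whole skin. That pattern was found for 6.04% of all probe sets tested in dermis, 14.7% in epidermis and 12.1% in whole skin. Il2ra pointed the other way in whole skin (1.01), with all transgenic arrays above, a pattern whose share was not counted. The summed signal of the 8 markers overlapped between the genotypes in each tissue. Rora was by far the brightest, with a mean log2 signal of 10.43 in wild-type epidermis against 6.53 for Il17rb, the next. The linear sum therefore mostly followed Rora and says little about the dimmer markers. Fibroblast markers, by contrast, summed to 10753 to 16048 in transgenic epidermis against 4401 to 9954 in wild-type epidermis, without overlap. The part of any of these cell types in the Gata3 result was not tested.

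Among the other GATA factors, only Gata2 and Gata6 were bright enough to be tested, and 0 of the 2 were called in any comparison of genotypes. The Gata2 log2 difference was 0.11 in whole skin, 0.02 in dermis and −1.07 in epidermis (limma adjusted p = 0.284).

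GATA3 is a regulator of the inner root sheath, and genes of that layer rose in transgenic dermis. Of 11 such genes tested, 5 rose there and 0 fell, where 0.0222% of all probe sets tested were called higher. The median log2 difference was 4.51 over the list against −0.09 over all probe sets tested. The 5 genes that rose gave 5 of the 7 probe sets called in dermis. Krt25, a keratin of the sheath, read 10.26, 10.38 and 9.66 in transgenic dermis, against 1.62, 1.34 and 1.98 in wild-type dermis (log2 difference 8.45, SE 0.36, limma adjusted p = 2.5e-05). Krt27 (log2 difference 8.26), Krt71 (5.79), the sheath granule protein gene Tchh (4.51) and Prr9 (4.16) were the other 4. By group mean, Gata3 was lowest in transgenic dermis.

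In wild-type dermis the mean log2 signals of Krt25 (1.65), Krt71 (1.51) and Krt27 (0.91) lay below the filter's level of 3.15. Among these 3, Krt27 spread most (SD 1.58, n = 3). The filter took the mean over all arrays, so a gene could pass it through its signal in transgenic dermis. Such a gene could hardly be called lower there. Krt26, Krt72 and Padi3, also on the list, were too dim to be tested. Without the filter, 5 of 14 sheath genes rose in dermis and 0 fell, where 10 probe sets were called in all. The count of sheath genes called in dermis ranged from 1 to 5 when an array was left out, and was 1 without wild-type dermis replicate 2 or without transgenic dermis replicate 2. Whole skin was uneven: Krt25 read 9.02, 7.79 and −1.43 in transgenic mice, against −1.44, 6.04 and −0.16 in wild-type mice. Only Krt73, also a sheath keratin, rose in whole skin (log2 difference 4.26, limma adjusted p = 0.00296), and in epidermis Krt73 (4.39, adjusted p = 0.0222) and the protease gene Ctsc (1.79, adjusted p = 0.0088) rose.

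**Figure D2:**
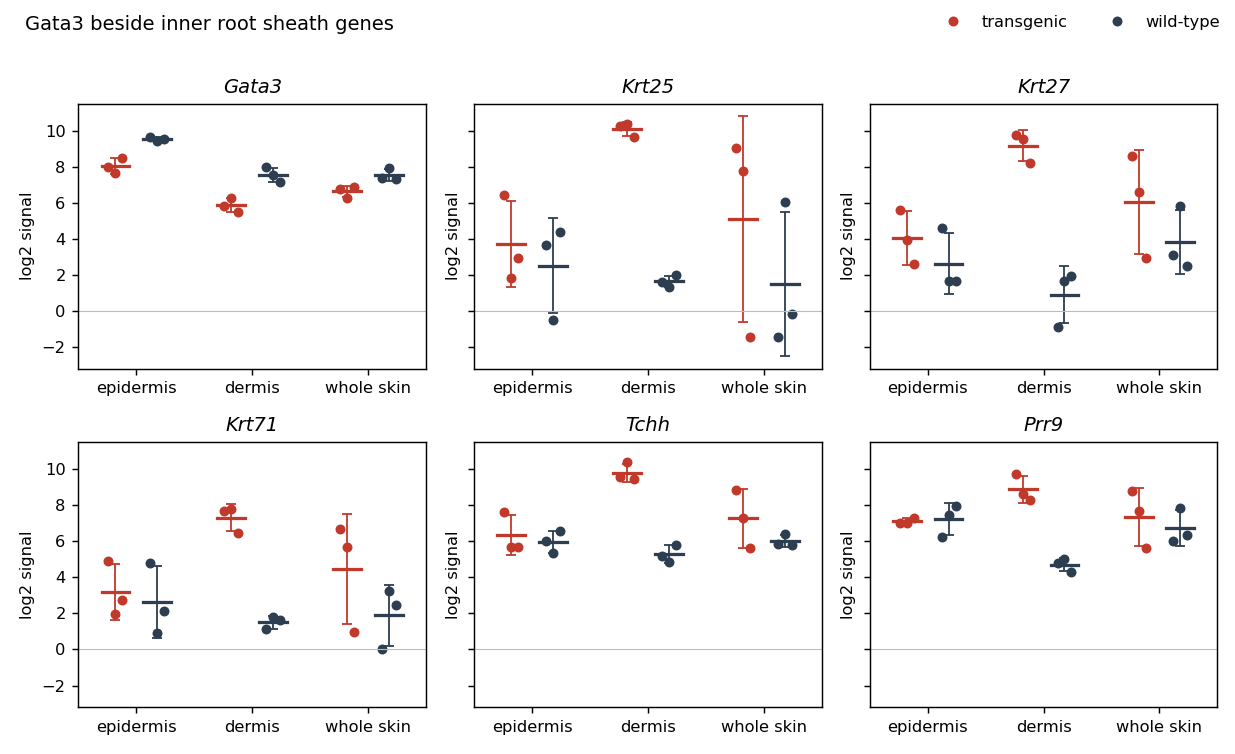
Log2 signal of Gata3 and of the 5 inner root sheath genes that rose in dermis, 1 point per array, with the mean and SD of 3 arrays, by tissue and genotype (common vertical scale, to be read within a gene). In dermis the transgenic points of the sheath genes lie above all wild-type points while those of Gata3 lie below.

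The following 3 genes had patterns over the arrays closest to that of Gata3, by the root mean square difference between centred log2 values over all 18 arrays. Cfap57 differed from Gata3 by 0.338, Gprin2 by 0.367 and Agfg2 by 0.386, against a median of 1.31 over 13738 genes and a spread of Gata3 around its own mean of 1.18. Averaged over the tissues, all 3 of these genes fell as well: Cfap57 by 1.23, Gprin2 by 0.97 and Agfg2 by 1.18 on the log2 scale. Since they were selected for likeness to Gata3, these differences describe the selection and are not separate support.

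**Figure D3:**
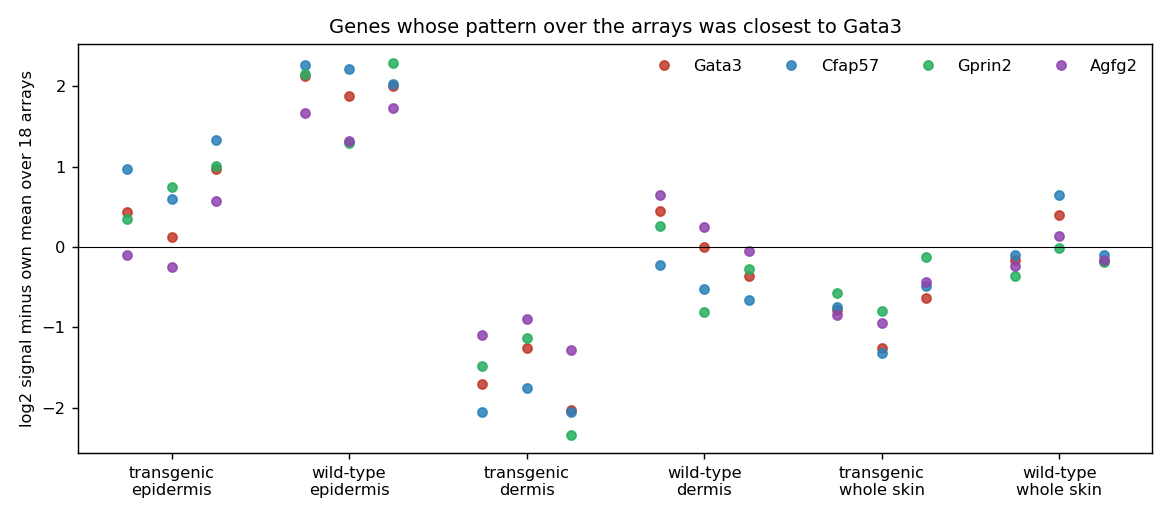
Log2 signal minus each gene's own mean over the 18 arrays, for Gata3 and the 3 genes closest to it, with 1 point per array in 6 groups. By group mean, all 4 genes are lowest in transgenic dermis and highest in wild-type epidermis.

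The nearest patterns to the other members were sought by the same measure. For Dlx3 they were those of Sbf1 (0.717), Slc4a9 (0.780) and Wbp2 (0.783), for Foxn1 those of Rcc1 (0.334), Fam83h (0.356) and Arhgap27 (0.359), and for Hoxc13 those of Ehd3 (0.394), Slc6a17 (0.431) and Nfatc4 (0.431). For Msx2 they were Neil3 (0.416), Oip5 (0.452) and Zmiz2 (0.462), and for Lef1 they were Fgf2 (0.465), Cgnl1 (0.476) and Syt7 (0.497).

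LEF1 carries Wnt signals, and its transcript was not shown to change. The Lef1 probe set read 4.09, 5.75 and 4.51 in transgenic epidermis, against 6.49, 4.89 and 3.06 in wild-type epidermis. In dermis it read 6.47, 6.93 and 7.43 in transgenic mice, against 6.65, 7.18 and 6.65 in wild-type mice. In whole skin it read 5.73, 5.53 and 5.17 in transgenic mice, against 5.45, 5.67 and 5.50 in wild-type mice. The genotypes overlapped in each tissue. The averaged log2 difference was 0.01, with a 95% confidence interval of −0.71 to 0.73 (limma adjusted p = 0.994). At other settings it ran from −0.66 to 0.17 and was not called. The wild-type epidermis arrays spread over more than 3 log2 units. Changes in that tissue within its 95% confidence interval of −1.73 to 1.67 were therefore not excluded. The tightest interval was in whole skin, from −0.49 to 0.36.

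By tissue, Lef1 read higher on every wild-type dermis array than on every wild-type epidermis array, as did 17.2% of all probe sets tested. The log2 difference was 2.01 (SE 0.67) and did not pass the threshold (limma adjusted p = 0.0544). It did pass at 6 of 9 other settings, with adjusted p from 0.0120 to 0.0821 over the 9, and with 3 of 12 arrays left out in turn. Of its relatives, Tcf7l1 and Tcf7l2 were tested and 0 of the 2 were called in any comparison of genotypes. Tcf7l1, which holds follicle stem cells in an undifferentiated state, had log2 differences of 0.26 in whole skin, 0.10 in dermis and −1.56 in epidermis (limma adjusted p = 0.166).

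Genes of the Wnt and BMP signals that work through Lef1 and Msx2 were also measured. Of 23 Wnt, BMP and FGF genes of the follicle tested, 9 fell and 0 rose in the averaged comparison. Of all probe sets tested, 2.44% were called lower and 1.9% higher there. The median over the list was −0.61 against −0.10 over all probe sets tested. The genes that fell included Bmp4 by 1.50 (limma adjusted p = 2.17e-04), a signal of the dermal papilla and matrix, the Wnt receptor gene Fzd10 by 1.75, and Axin2, a direct target of beta-catenin, by 0.67 on the log2 scale (adjusted p = 0.0156). In epidermis Wnt5a fell by 1.49, Bmp4 by 2.15 and Fgf18 by 2.73 on the log2 scale, and in whole skin Wnt3a fell by 1.50. In dermis 0 of the 23 were called. Wnt10b, Dkk1, Dkk4, Nog, Shh and Edar, on the same list, were too dim to be tested.

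Msx2 was dim on this platform. It read 3.32, 4.20 and 4.64 in transgenic epidermis, against 3.57, 4.58 and 5.26 in wild-type epidermis, and the genotypes also overlapped in dermis and whole skin. Its averaged log2 difference was 0.11, with a 95% confidence interval of −0.60 to 0.81 (limma adjusted p = 0.906). The 6 group means lay between 2.89 in wild-type whole skin and 4.47 in wild-type epidermis, and the range of each group overlapped with that of the next in order.

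DLX3 links the matrix and the differentiating epidermis, and both of its probe sets passed the filter. The brighter probe set read 6.80, 5.52 and 7.32 in transgenic dermis, against 3.37, 5.68 and 5.53 in wild-type dermis. The dimmer probe set read 3.66, 2.82 and 4.57 in transgenic dermis, against 1.54, 1.83 and 3.25 in wild-type dermis. Both means were higher in transgenic dermis, but the genotypes overlapped on both probe sets. The log2 differences were 1.69 (SE 0.67) and 1.47 (SE 0.82), and neither passed (limma adjusted p = 0.990 for both). The lowest wild-type array was replicate 1 on both probe sets.

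In epidermis the brighter Dlx3 probe set read 7.64, 8.12 and 8.09 in transgenic mice, against 7.86, 8.16 and 7.52 in wild-type mice, a log2 difference of 0.10 with a 95% confidence interval of −0.50 to 0.71. The dimmer probe set pointed the other way there (log2 difference −0.41, limma adjusted p = 0.567). All its transgenic epidermis arrays were below the wild-type ones, as for 14.7% of all probe sets tested. In whole skin the differences were 0.32 and 0.52. The dermis difference minus the epidermis difference was 1.59 on the brighter and 1.89 on the dimmer probe set, and neither passed (limma adjusted p = 0.668 for both). Over the tissues the averaged log2 differences were 0.71 (adjusted p = 0.254, limma) and 0.53 (0.359).

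Dlx3 differed between the tissues of wild-type mice, where 15.7% of all probe sets were called (8.57% higher and 7.12% lower) and 4 of the 7 tested member probe sets were, 1 higher and 3 lower. It was lower in wild-type dermis than in wild-type epidermis by log2 differences of −2.99 on the brighter probe set (SE 0.55, 7.94-fold, limma adjusted p = 0.00280) and −3.24 on the dimmer one (SE 0.58, 9.47-fold, adjusted p = 0.00224). All dermis arrays lay below all epidermis arrays on both probe sets, as for 22.6% of all probe sets tested. Of the related Dlx and Msx genes, 3 of 7 were bright enough to be tested and 0 were called in any comparison of genotypes.

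HOXC13 acts on keratins of the hair shaft, and Hoxc13 was the member called higher in wild-type dermis than in wild-type epidermis. It read 5.95, 6.03 and 6.43 in transgenic dermis, against 5.23, 6.26 and 5.74 in wild-type dermis. In epidermis it read 5.20, 4.59 and 4.30 in transgenic mice, against 4.98, 2.38 and 4.22 in wild-type mice. In whole skin it read 5.23, 5.02 and 5.22 in transgenic mice, against 4.78, 5.24 and 4.94 in wild-type mice. The genotypes overlapped in every tissue, and the averaged log2 difference of 0.47 did not pass (95% confidence interval −0.12 to 1.05, limma adjusted p = 0.401). In wild-type mice Hoxc13 was higher in dermis than in epidermis by 1.89 on the log2 scale (SE 0.57, limma adjusted p = 0.0369). That call was lost without wild-type epidermis replicate 2, its lowest array, where the difference was 1.14 (adjusted p = 0.0954). It was also lost without wild-type epidermis replicate 3 (0.0636) and without wild-type dermis replicate 1 (0.0519), 2 (0.123) or 3 (0.106).

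Neighbours of Hoxc13 in the Hoxc cluster, which set position along the body, included genes that fell. Of 6 tested, 3 fell and 0 rose in the averaged comparison: Hoxc4 by 0.65, Hoxc5 by 1.05 and Hoxc10 by 1.21 on the log2 scale (limma adjusted p = 0.0289, 0.0131 and 0.0335). Of all probe sets tested, 2.44% were called lower and 1.9% higher in that comparison. In dermis Hoxc10 read 6.34, 6.53 and 4.14 in transgenic mice, against 8.24, 8.34 and 8.37 in wild-type mice. Whether the change in Hoxc13 differs from that in its neighbours was not tested.

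Hair shaft genes, some of them known targets of HOXC13, were not called higher. Of 11 tested, 0 were called in epidermis, dermis or whole skin, and in the averaged comparison 1 fell, the hair keratin gene Krt32, by 0.66 on the log2 scale (limma adjusted p = 0.0323). There, 2.44% of all probe sets tested were called lower. Krt31, a cortex keratin, read 4.57, 4.75 and 2.75 in transgenic dermis, against 3.35, 4.29 and 3.47 in wild-type dermis. Of the 26 shaft genes on the array, 15 were too dim to be tested, so most of this layer was not assessed.

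FOXN1 drives differentiation in matrix and epidermis. The Foxn1 probe set read 4.20, 5.30 and 5.63 in transgenic epidermis, against 5.10, 4.72 and 5.54 in wild-type epidermis. In dermis it read 3.81, 4.24 and 3.53 in transgenic mice, against 4.60, 3.48 and 3.63 in wild-type mice. In whole skin it read 3.91, 3.73 and 3.34 in transgenic mice, against 3.10, 3.69 and 3.32 in wild-type mice. The genotypes overlapped in each tissue, and the averaged log2 difference was 0.05, with a 95% confidence interval of −0.49 to 0.59 (limma adjusted p = 0.939). In wild-type mice all dermis arrays were below all epidermis arrays, as for 22.6% of all probe sets tested. The log2 difference of −1.21 did not pass (limma adjusted p = 0.119).

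**Figure D4:**
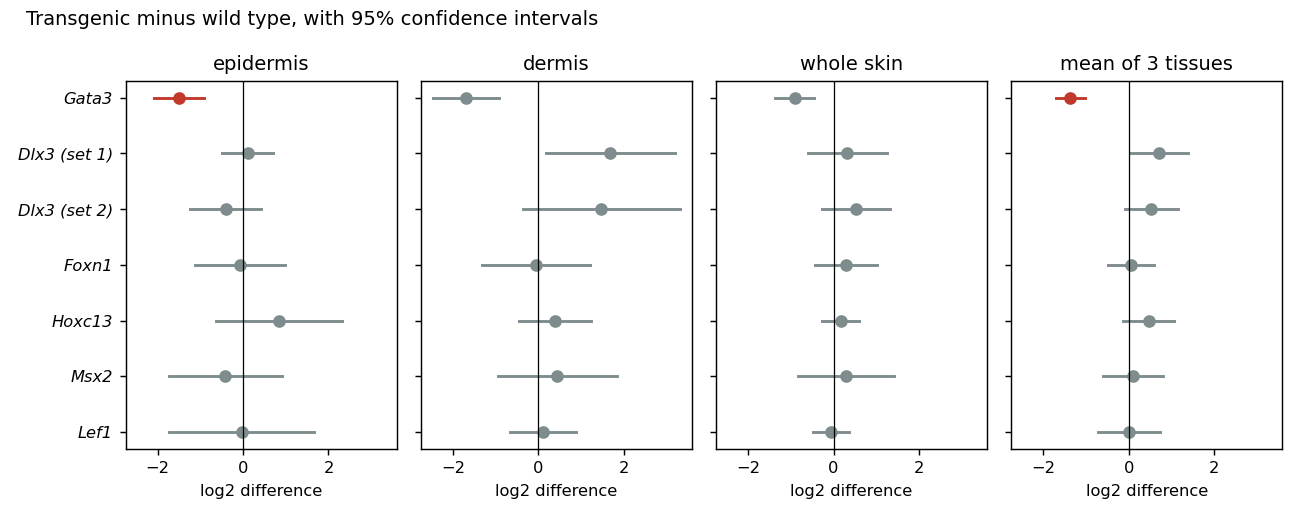
Log2 difference, transgenic minus wild type, of the 7 tested probe sets in each tissue and averaged over the 3 tissues, with 95% confidence intervals (unadjusted). Red marks an adjusted p under 0.05, reached by Gata3 in epidermis and in the average, and set 1 and set 2 of Dlx3 are its brighter and dimmer probe sets.

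Other transcription factors of the follicle, beyond these 6, were called higher where they were called at all. Of 27 tested, 2 rose in epidermis, namely Runx1 by 2.58 (limma adjusted p = 0.00364) and Sox9 by 1.51 on the log2 scale (adjusted p = 0.026), and 0 fell. Both act in follicle stem cells and the outer layers. In the averaged comparison 5 rose (Vdr, Runx1, Sox9, Egr2 and Gli2) and 0 fell, and in dermis 0 were called. Of all probe sets tested, 0.923% were called higher in epidermis and 1.9% in the averaged comparison. Gata3, by the same test, fell.

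Targets of Notch were read in the same arrays, and they did not move together. Heyl, a Notch target, read 7.82, 7.66 and 7.84 in transgenic whole skin, against 5.50, 5.37 and 5.23 in wild-type whole skin (log2 difference 2.40, limma adjusted p = 1.23e-04). Hes1, another Notch target, was not called, with log2 differences of 0.80 in whole skin, −0.34 in epidermis and 0.00 in dermis. The ligand gene Dll1 fell by 2.42 in epidermis (adjusted p = 0.00161) and by 1.12 in whole skin. Of 14 Notch genes tested, 2 rose and 3 fell in the averaged comparison, where 1.9% of all probe sets were called higher and 2.44% lower. The summed linear signal of 15 Notch genes overlapped between the genotypes in epidermis (ratio of means 1.045) and in dermis (1.05). In whole skin it was higher on all transgenic arrays (1.07).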

How the data were processed

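RNA from 18 mouse skin samples was measured on Affymetrix arrays. The submitters' processing notes name MAS5, with no version. Values for 45037 probe sets, deposited by the authors in 1 table, were read as log2 signal: set back to the linear scale, the mean of each array without its highest and lowest 2% of values lay between 98.9 and 99.5. Values below 0 made up 2.81% to 9.36% of an array. The number of arrays limits the precision.

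The deposited values were used without further normalization. Names came from the platform annotation (34945 with 1 symbol, 932 with several, 9160 unnamed here); 34741 of the 34945 were found by Entrez identifier in a RefSeq table, and 0 symbols changed. The 31526 probe sets whose mean lay above the 30th percentile (log2 3.15) were fitted in limma 3.58.1 under R 4.3.3, with the prior variance following the mean signal (trend). Each tissue was fitted on its own 6 arrays, the tissue comparisons on the 12 arrays of dermis and epidermis, and the averaged effect on all 18. P-values were two-sided and adjusted by Benjamini-Hochberg over all probe sets tested, with a threshold of 0.05; confidence intervals are unadjusted. The fits were tested on simulated data. Unchanged probe sets made up 12.2% of simulated calls for the averaged effect, 7.16% between wild-type tissues and 6.20% for the difference of effects. These shares lay above the threshold of 0.05, so counts of calls in those comparisons may hold more false calls than it allows. Fits on a single tissue stayed below it, with 2.63% for dermis, 4.48% for epidermis and 4.62% for whole skin. A gene in a list is represented by its brightest probe set.

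All member probe sets are named, with the 3 genes closest to each member up to 4 called genes per list (all where 5 or fewer were called) and fixed markers of hair layers, skin cell types and pathways. The members and lists were chosen with earlier results of these data known. Alternatives covered the arrays in the fit, the filter, the scaling, the probe set rule, a replicate block and each array left out.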

Additional observations from a re-analysis of the deposited data

How the results depend on the processing

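Over the member probe sets and comparisons, 682 alternative values kept their direction and side of the threshold or moved by less than their spread, 56 moved by more, 10 gained a call and 11 lost it. Differences called in the fits above kept their direction, but some uncalled ones changed sign between settings. Lef1 ran from −0.66 to 0.17 in the average and from −0.57 to 0.19 in dermis. The brighter Dlx3 probe set ran from −0.15 to 0.22 in epidermis. Gata3 averaged over tissues was called at every setting run (adjusted p 3.44e-05 to 0.00250). Same-numbered transgenic and wild-type arrays correlated at −0.329 to 0.0727 within a tissue, so the numbers were not taken as pairs of genotypes; with the replicate block, Gata3 in epidermis had an adjusted p of 0.0664 and 0 member probe sets were called there, against 1, and Hoxc13 between wild-type tissues had one of 0.0561; the block changed no other member call. Within a genotype, same-numbered epidermis and whole skin arrays correlated at 0.166 to 0.216 in transgenic and 0.0683 to 0.0930 in wild-type mice, each best with its own number, and transgenic epidermis and dermis at 0.00267 to 0.400; with replicate number within genotype as a random block, added after seeing the data, the averaged effect had 924 called probe sets, against 1367, and Gata3 was still called. With all 18 arrays in 1 fit, 1 member, Gata3, was called in dermis, against 0; on simulated data most dermis calls of that fit were of unchanged probe sets, unlike those of the fit on the 6 dermis arrays. Counts of all called probe sets also moved. In epidermis, 470 became 1811 with all 18 arrays and 192 with the block. In dermis, 7 became 56 with all 18 arrays. In whole skin, 493 became 34 with all 18 arrays and 240 with the mean of a gene's probe sets. For the average, 1367 became 831 with the brightest probe set per gene and 613 with the block. For dermis minus epidermis of the genotype effect, 0 (2333 at an unadjusted p under 0.05) became 45 with all 18 arrays, 7 with no filter, 14 with 16 added, 3 with the brightest probe set, 7 with the mean of probe sets and 14 with replicate number as a random block, an alternative chosen after seeing the data. For wild-type dermis against wild-type epidermis, 4947 became 8488 with all 18 arrays, 2559 with the brightest, 2540 with the mean and 2589 with the block; some of these fits test fewer genes or samples, and otherwise the cause was not tested. With 1 array left out, counts ran from 88 (without transgenic epidermis replicate 1) to 2396 (without wild-type epidermis replicate 2) in epidermis, 1 to 36 in dermis, 138 to 509 in whole skin, 870 to 2231 for the average, 0 to 45 for the difference of effects and 2303 to 6344 between wild-type tissues; member counts ran 0 to 1, 0, 0, 1, 0 and 3 to 5 in that order. The median of all probe sets in epidermis was −0.20 as deposited and 0.00 after quantile scaling, and higher calls were 291 of 470, 252 of 372 with quantile and 356 of 502 with the 75th percentile shift; for the average they were 598 of 1367, 703 of 1269 and 785 of 1358. Gata3 stayed lower under each scaling.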

Other observations

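Of 16 cell cycle genes tested, 6 rose and 0 fell in the averaged comparison, where 1.9% of all probe sets were called higher, and 4 rose in whole skin, where 0.91% were. Mki67, a marker of dividing cells, rose by 0.55 on the log2 scale (limma adjusted p = 0.0352). The BMP ligand gene Bmp2 fell by 0.86 in the same comparison (adjusted p = 0.00505). Krt10, a keratin of differentiating epidermis (log2 difference −0.48, adjusted p = 0.183), the collagen gene Col1a1 (0.38, adjusted p = 0.322) and Tcf7l2 (−0.12, adjusted p = 0.786) did not pass. Msx1, Krt35, S100a3 and Corin were too dim to be tested, and Krt85, Dsg4, Il1rl1 and Tcf7 carried no probe set annotated to that symbol alone.

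The second probe set of Lef1 was too dim to be tested with the others. It read −0.55, −0.50 and −0.86 in transgenic epidermis, against 0.65, 0.12 and 3.80 in wild-type epidermis, so that all transgenic arrays were below the wild-type ones, while the brighter Lef1 probe set overlapped between the genotypes there. The share of all probe sets with that pattern was not counted without the filter. Fitted without the filter, the log2 difference of the second Lef1 probe set was −2.16 and did not pass (limma adjusted p = 0.394). The second probe sets of Foxn1 and Msx2 had group means of at most 2.78 and 3.50 on the log2 scale.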
